A study of Mus musculus with 67 samples.

Results

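The genes described here were 10 imprinted genes that are normally expressed from the copy inherited from the father: Snrpn, Zrsr1, Impact, Peg3, Plagl1, Usp29, Peg10, Mest, Sgce and Nnat. They were chosen by symbol from the 26414 features of the deposited table, because paternally expressed genes had been low in control embryos at the 8-cell stage. All 10 members were in the table. The difference between light and control at the 8-cell stage, and the changes into and out of the control 8-cell stage, are therefore given as descriptions without a test.

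The study asked how preimplantation mouse embryos respond to strong light during culture. Embryos of the inbred strain C57BL/6 were made by in vitro fertilization, and RNA was read by SMART-seq2, which copies whole polyadenylated transcripts. Embryos of the light group stood under 5000 lx for 6 h as 2-cell embryos and developed in darkness afterwards, while control embryos received no such light. The control group comprised 7 libraries of 2-cell, 6 of 4-cell and 4 of 8-cell embryos, 13 of morulae and 3 of blastocysts. The light group comprised 6, 8, 8, 6 and 6 in the same order. The study's methods describe single cells taken from dissociated embryos, while the labels give each library an embryo number. No source names the animals or litters, so the p-values measure the spread between libraries, which may share an embryo. Summed Y-linked reads were 0 or 1 in all 13 control morulae and 57 to 605 in all 8 light 4-cell libraries. The number of embryos behind each group is not stated and may be smaller than the number of libraries. Both parents carried the same strain, so reads could not be assigned to the maternal or the paternal copy. In blastocyst cells, a change of cell type and a change of RNA within a cell type cannot be told apart.

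In its classical form, genomic imprinting marks a gene in the egg or the sperm by DNA methylation, so that the embryo transcribes mainly the copy from 1 parent. The marks are set at imprinting control regions and withstand the wide loss of methylation in the cleaving embryo, with the help of the zinc-finger protein ZFP57, which recognises the methylated hexamer TGCCGC. Several paternally expressed genes are known for their later roles in the placenta, in fetal growth and in the brain.

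The members lie on 6 autosomes in GENCODE M21 (GRCm38). Peg3 and Usp29 are neighbours on chromosome 7 that are transcribed in opposite directions, with 146 bases between them. Sgce and Peg10 form the same kind of pair on chromosome 6, with 98 bases between them. Mest is also on chromosome 6, Snrpn on chromosome 7, Nnat on 2, Plagl1 on 10, Zrsr1 on 11 and Impact on 18. Upstream sequences from RefSeq (GRCm38.p6) were found for 7 members, and those of Impact, Peg10 and Sgce were not used here.

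Upstream sequence is shown for Snrpn, the member with the highest level per length in most groups. It is also shown for Mest and Plagl1, the members whose shown windows hold TGCCGC, and for the stretch between Peg3 and Usp29. Peg3 was higher in light than in control blastocysts. Usp29 was lower there, but with 9 reads in all in control and 2 in light it was too low to be tested. Capitals mark TGCCGC or its reverse complement GCGGCA. The windows end 1 base before a RefSeq transcript start, and each is written 5′ to 3′ on the strand of the gene.
Snrpn, chr7:60005200-60005449, minus strand: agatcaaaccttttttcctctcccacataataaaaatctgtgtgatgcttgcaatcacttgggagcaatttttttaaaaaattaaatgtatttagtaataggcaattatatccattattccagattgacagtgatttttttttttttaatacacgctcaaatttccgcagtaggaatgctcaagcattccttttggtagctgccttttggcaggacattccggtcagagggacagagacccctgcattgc
Mest, chr6:30737800-30738049, plus strand: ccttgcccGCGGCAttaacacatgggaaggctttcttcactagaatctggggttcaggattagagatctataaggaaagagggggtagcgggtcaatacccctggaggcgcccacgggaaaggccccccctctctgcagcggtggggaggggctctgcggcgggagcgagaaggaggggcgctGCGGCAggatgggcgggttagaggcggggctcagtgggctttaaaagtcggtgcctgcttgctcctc
Plagl1, chr10:13090582-13090831, plus strand: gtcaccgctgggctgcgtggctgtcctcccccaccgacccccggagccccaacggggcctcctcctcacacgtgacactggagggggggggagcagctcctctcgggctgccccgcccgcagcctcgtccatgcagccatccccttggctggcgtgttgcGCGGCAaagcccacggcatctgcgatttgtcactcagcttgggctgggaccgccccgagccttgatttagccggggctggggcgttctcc
Peg3 to Usp29, chr7:6730420-6730582, plus strand, between the 2 transcript starts: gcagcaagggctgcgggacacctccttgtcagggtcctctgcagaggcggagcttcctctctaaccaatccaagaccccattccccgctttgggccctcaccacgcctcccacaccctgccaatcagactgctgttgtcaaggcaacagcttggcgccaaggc

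The Mest window shown held 2 matches and 14 CpG dinucleotides, and the Plagl1 window held 1 match and 19 CpG. RefSeq gives Mest another start, whose window (chr6:30733256-30733505) held 0 matches and 7 CpG. The Snrpn window held 0 matches and 3 CpG, as 0 matches were held by the windows of its other starts, and the stretch between Peg3 and Usp29 held 0 and 5. Among 32851 upstream windows of 250 bases in RefSeq, 8.68% held the hexamer on either strand, and the median number of CpG was 6. These matches describe the letters of the windows and are no evidence of a bound protein.

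The libraries held 836011 to 8551674 reads on features (median 4632053), of which most were on 2 features of ribosomal RNA, CT010467.1 and Gm42418. Reads outside these ranged from 318177 to 2867034, and CPM below means reads per 1000000 of them. A few libraries stood apart. Control blastocysts 1 and 2 had summed trophectoderm markers of 1526 and 5850 CPM and summed inner cell mass markers of 4658 and 2532, whereas the other blastocyst libraries had 11634 to 15824 and 315 to 578. Control 4-cell libraries 1 and 2 differed from the other 4-cell libraries in Xist and in the ratio of the 2 ribosomal features. That ratio was higher in every control library than in every light library at the 2-cell stage (2.34 to 4.03 against 1.58 to 1.77), at the 8-cell stage (2.01 to 2.34 against 1.52 to 1.71) and in morulae (2.34 to 4.14 against 1.49 to 1.67). It overlapped at the 4-cell stage (1.61 to 4.55 against 1.43 to 1.63) and in blastocysts (1.42 to 1.45 against 1.29 to 1.75), and its part in the results below was not tested. Markers of cumulus cells and sperm were at most 44.1 and 8.65 CPM in any library.

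The values below are the deposited ones, in which the reads of a library are scaled by its size factor and transcript length is not taken into account. Folds come from limma on log2 of the value plus 1, so they understate changes of low genes. A gene was called when its Benjamini-Hochberg adjusted p over all features tested was under 0.05 and its fold change was at least 2. A feature was tested when 3 or more of the libraries compared had a value above 1. A member at or near 0 in 1 of the groups compared entered the test through the other group, so the counts of members called are descriptions to be read beside the shares of all features.

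Reads of Snrpn were found in 63 of 67 libraries, of Impact in 58, of Mest in 56, of Peg3 in 53 and of Usp29 in 52. Sgce was found in 42, Zrsr1 in 33, Nnat in 32, Plagl1 in 29 and Peg10 in 17. The highest single value among all members was 244.59, for Snrpn in a control 4-cell library. On the scale of CPM per kilobase of exon, Snrpn had the highest mean level of the 10 members in 8 of the 10 groups. The exceptions were control 2-cell embryos, where Mest led with 21.0 ± 8.35 (SD, n = 7) against 5.54 ± 2.59 for Snrpn, and control 8-cell embryos, where Nnat led with 10.4 ± 18.8 (SD, n = 4), which rested on 1 library.

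**Figure D1:**
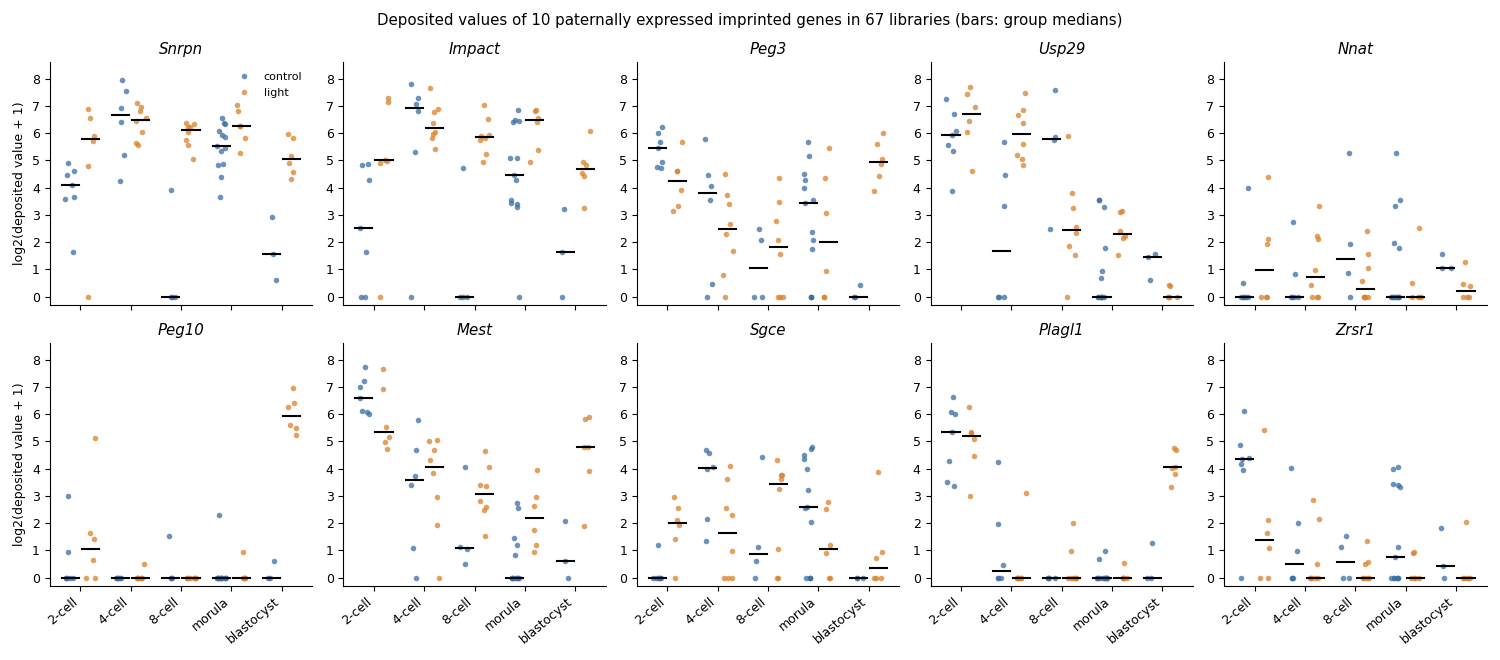
Each panel shows 1 member, with the stage on the x axis and log2 of the deposited value plus 1 on the y axis. Points are the 67 libraries, blue for control and orange for light, and black bars are group medians. Snrpn and Impact are at 0 in 3 of 4 control 8-cell libraries, and among blastocysts Peg10 and Plagl1 are high only in the light libraries.

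At the 8-cell stage, the control values that led to the choice of these genes were low for most members but not for all. Snrpn, which encodes a protein of the spliceosomal small ribonucleoproteins, had values of 0, 0, 13.9 and 0 in the 4 control libraries and from 32.5 to 81.7 in the 8 light libraries, with a median of 69.2. Impact, a regulator of the GCN2 branch of translation control, had 0, 0, 0 and 25.0 in control and 29.4 to 130.1 in light, with a median of 57.0. The groups did not overlap for these 2 members, and the 1 control library with Snrpn reads was not the one with Impact reads. Among all 13861 features tested at this stage, 5.61% did not overlap between the groups and 3.31% were higher in every light library, shares that stand beside this count and are no test of it.

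The other members overlapped between light and control at the 8-cell stage. Mest had 15.7, 1.06, 1.16 and 0.417 in the control libraries and 1.86 to 23.8 in light. Sgce had 20.4, 0.532, 1.16 and 0 in control and 0 to 19.02 in light. So Mest and Sgce were high in control library 1, which held no read of Snrpn or Impact.

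Usp29, a member of the ubiquitin-specific protease family, went the other way. Its control values were 57.4, 189.5, 4.64 and 52.1, and light values ran from 0 to 58.6 with a median of 4.40. Its neighbour Peg3, a zinc-finger transcription factor gene, had control values of 0, 3.19, 0 and 4.59 and light values of 0 to 19.3. Of the control libraries, 3 of 4 were higher in Usp29 than 7 of 8 light libraries, whereas Peg3 overlapped widely.

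Nnat, a small membrane proteolipid gene, had 37.1 in control library 3 and at most 2.78 in the other 3 control libraries, while light values ran from 0 to 4.33. Plagl1, a zinc-finger transcription factor gene, was at 0 in all 4 control libraries and at 0 in 6 of 8 light libraries. Peg10, derived from a retrotransposon and needed in the placenta, was at 0 in all 8 light libraries. Zrsr1, related to the splicing factor U2AF, reached at most 1.85 in either group. The last 3 genes were therefore near or at 0 on both sides.

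Before and after this stage the control group held more of the first pair. Snrpn in control ran from 17.9 to 244.59 (median 102) at the 4-cell stage and from 11.6 to 93.4 (median 45.7) in morulae. Impact ran from 0 to 222.9 (median 122) and from 0 to 115 (median 21.2). The control 8-cell values of both genes lay below the medians of the stages before and after, except that Impact in control library 4 was above the morula median. In the light group Snrpn had medians of 88.8, 69.2 and 75.9 at the 4-cell, 8-cell and morula stages, and Impact had 73.0, 57.0 and 88.0.

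Other imprinted genes were set beside the members, from lists chosen with earlier results known. Of 23 other paternally expressed genes, 10 passed the filter at the 8-cell stage. Beside 3.31% of all features, 2 of these genes were higher in every light library than in every control library. They were Kcnq1ot1, a long noncoding RNA, at no more than 0.417 in control and 3.19 to 93.3 in light, and Gab1, an adaptor of receptor signalling, at 0 in all 4 control libraries and 1.90 to 71.3 in light. Of 27 maternally expressed genes, 12 passed and 0 failed to overlap, beside 5.61% of all features. Summed over the 23 genes, control libraries had 6.61 to 66.2 CPM and light libraries 118 to 346, whereas the maternally expressed sum was 855 to 1198 and 613 to 1073.

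Sex-linked RNA differed beside these groups. The sum of 8 Y-linked genes was at most 1.41 CPM in the 4 control 8-cell libraries and 0 to 209 in the light ones. Xist, transcribed from the inactive X, had 0 to 5.64 CPM in control and 5.37 to 1209 in light. Cell and stage markers moved with the 8-cell groups as well. Summed maternal RNAs of the oocyte were at 251 to 403 CPM in control and 98.7 to 186 in light, and trophectoderm markers at 256 to 513 and 541 to 1372, both without overlap. Genes of the transient 2-cell program summed to 40.5 to 284 and 0.894 to 90.4. Depth outside ribosomal RNA overlapped, with 453578 to 1482728 reads in control and 652580 or more in light. The part of these values in the difference was not tested.

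**Figure D2:**
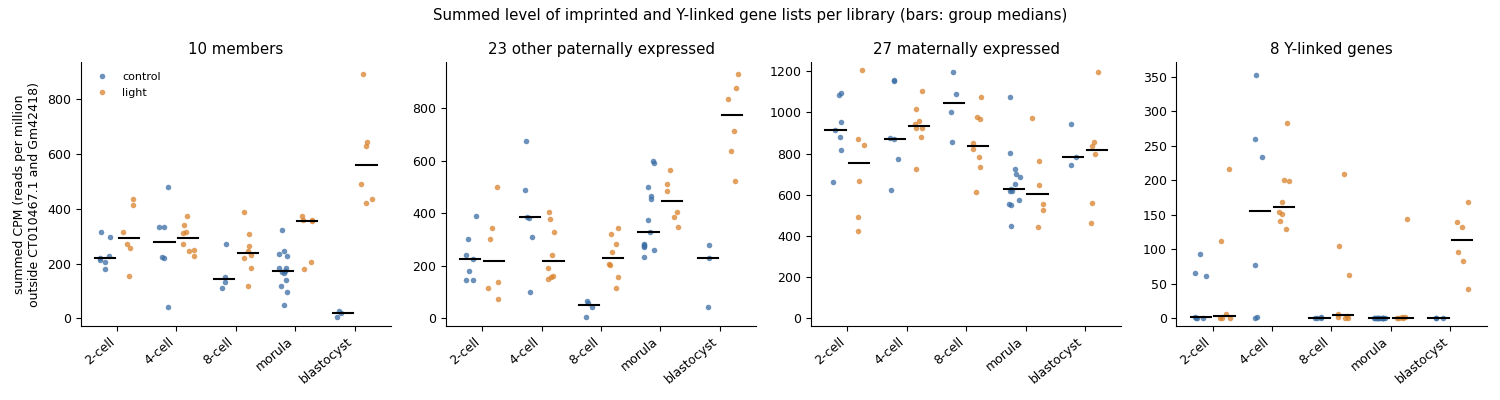
The panels show, per library, the CPM summed over the 10 members, 23 other paternally expressed, 27 maternally expressed and 8 Y-linked genes, with the stage on the x axis. Blue points are control, orange points are light and black bars are medians. The members sum to 6.44 to 27.2 in control blastocysts and 422 to 889 in light blastocysts, and the maternally expressed sums of the same groups overlap.

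Of the 4 stages tested, blastocysts gave the largest number of called members between light and control. Of the 7 members tested, 6 were called and all 6 were higher in light, namely Peg10, Peg3, Plagl1, Mest, Snrpn and Impact. Among all 12743 features tested, 5.34% were called and 0.353% were called higher, since the median log2 fold change of all features was -0.64 at the deposited scaling. The median over the 7 members was 3.63. Each of the 6 had a value above 1 in at most 2 of the 3 control libraries and reached the filter through its light libraries. The count, the median and the adjusted p of each of the 6 below are therefore descriptions. With scaling by the median ratio the median of all features was -0.09 and calls over all features split into 132 higher and 152 lower, against 45 and 635 with the deposited scaling. The 6 members were called higher under both.

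Snrpn had 0.526, 6.61 and 1.93 in the 3 control blastocysts and 18.9 to 61.3 (median 31.9) in the 6 light blastocysts. Impact had 0, 2.09 and 8.35 in control and 8.41 to 66.3 (median 24.8) in light. The lowest light value of Impact was close to the highest control value, and for Snrpn the groups were further apart. The log2 fold change was 3.43 ± 0.65 (SE, adjusted p = 0.0067) for Snrpn and 3.05 ± 0.75 (adjusted p = 0.0221) for Impact. The call of Impact was lost without control blastocyst 1 or without control blastocyst 2, with an adjusted p of up to 0.0831.

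Both zinc-finger genes were nearly absent from control blastocysts. Peg3 had 0, 0.348 and 0 in control, 1 read in all, and 13.7 to 62.6 (median 30.1) in light. Plagl1 had 0, 1.39 and 0 in control and 8.97 to 25.8 (median 15.6) in light. Every light value lay above every control value for both genes. The log2 fold change was 4.83 ± 0.68 (adjusted p = 0.00045) for Peg3 and 3.69 ± 0.71 (adjusted p = 0.00769) for Plagl1. Peg3 was above 1 in 0 of 3 control libraries and Plagl1 in 1, so both calls are descriptions.

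Peg10 had 0.526, 0 and 0 in the control blastocysts, again 1 read in all, and 37.1 to 124 (median 61.7) in the light ones. It showed the widest separation of the members. The fitted log2 fold change was 5.80 ± 0.60 (adjusted p = 6.9e-06). Peg10 was above 1 in 0 of 3 control libraries and passed the filter through the light ones alone, so its call is a description. Because the fitted folds of Peg10 and Peg3 depend on the added 1, the ratio of summed reads was also taken. Scaled by the size factors, it was 416 for Peg10 (95% exact interval 74.5 to 16445) and 218 for Peg3 (38.9 to 8622). Scaled by the reads outside ribosomal RNA, it was 718 (129 to 28381) and 376 (67.2 to 14879). These intervals cover counting error only.

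Mest, which encodes a protein of the alpha/beta hydrolase fold, had 0.526, 0 and 3.21 in control and 2.72 to 58.5 (median 26.8) in light. The lowest light library overlapped with control. The log2 fold change was 3.63 ± 0.84 (adjusted p = 0.0167), and the call was lost without control blastocyst 2, with an adjusted p of 0.0786. In light blastocysts the levels in CPM per kilobase were 43.4 ± 13.3 (SD, n = 6) for Snrpn, 27.7 ± 12.9 for Peg10, 22.6 ± 18.4 for Mest and 14.4 ± 6.88 for Impact, and the ranges of mean ± SD overlapped between neighbours in this order.

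The remaining 4 members were not called or did not pass the filter. Usp29 had 0.526, 1.74 and 1.93 in control blastocysts and at most 0.357 in light, and it did not pass the filter. Nnat had 1.05, 1.04 and 1.93 in control and 0 to 1.43 in light, with a log2 fold change of -0.85 ± 0.52 (adjusted p = 0.332). Sgce, the epsilon-sarcoglycan gene beside Peg10, was at 0 in all 3 control libraries and had 0 to 13.5 in light with a median of 0.320. Zrsr1 had 0, 0.348 and 2.57 in control and was at 0 in 5 of 6 light libraries.

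Without overlap between the groups, 5 members that passed the filter were higher in light (Snrpn, Impact, Peg3, Peg10 and Plagl1), and over all features 0.573% were. Usp29 was lower in every light library than in every control library, as were 11.9% of all features. Of all 12743 features, 45 were called higher and 635 lower. Of the 23 other paternally expressed genes, 12 were tested, 4 were called higher and 0 lower. Sfmbt2, a Polycomb protein gene needed in trophoblast, had 0.348 to 0.642 in control and 34.2 to 154 in light (log2 fold change 5.50 ± 0.58, adjusted p = 9.7e-06), and Gab1 had 0 to 30.5 and 54.8 to 142 (4.48 ± 0.75, adjusted p = 0.00296). Both passed the filter through their light libraries, and their list was chosen with earlier results known, so these calls are descriptions. Of 27 maternally expressed genes, 16 were tested, 0 were called higher and 3 lower, among them Igf2r (-2.52 ± 0.51, adjusted p = 0.0101) and Meg3 (-3.70 ± 0.81, adjusted p = 0.0132).

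Cell type markers and Y-linked RNA moved with the blastocyst groups too. Control blastocyst 3 had a trophectoderm sum of 12715 and an inner cell mass sum of 413, both within the range of the light blastocysts. It had no read of Peg3, Peg10 or Plagl1 and values of 1.93 for Snrpn, 8.35 for Impact and 3.21 for Mest. A fit without control blastocysts 1 and 2, an alternative chosen after the data were seen, left 1 control library, so no p is given. The 6 called members stayed higher in light, and not all of their calls were kept. In that fit the lone control library was assumed to vary like the light group. Y-linked sums were 0.466 to 1.07 CPM in control and 42.0 to 168 in light blastocysts. In control morulae the Y-linked sums were 0 to 0.975 CPM and the member sums 49.0 to 322. Xist had 54.7, 32.6 and 761 CPM in control blastocysts 1, 2 and 3 and 19.2 to 428 in light ones. The part of these values in the result was not tested.

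**Figure D3:**
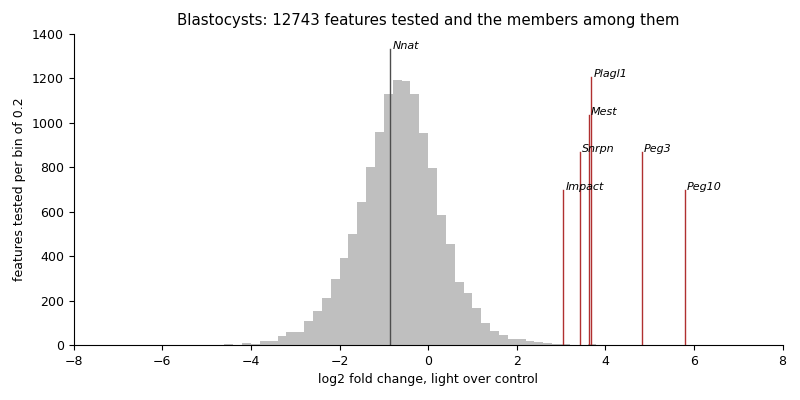
The grey bars count all 12743 features tested in blastocysts by their log2 fold change of light over control (x axis, bins of 0.2). Vertical lines mark the 7 members tested, red where called and grey where not, and their heights only separate the names. Most features lie between -2 and 1, and the 6 called members lie from 3.05 to 5.80.

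At the 2-cell stage no member was called. limma called 0 of 10 beside 10.5% of all 18532 features, while edgeR and DESeq2 called 2 of 10 each, beside 2162 and 2741 features. In limma 4 members had an unadjusted p under 0.05, beside 4782 of all features. The 4 were Sgce, Zrsr1, Impact and Peg3. Sgce had 0 in 6 of 7 control libraries and 0 to 6.70 (median 3.07) in light (log2 fold change 1.66 ± 0.58, adjusted p = 0.0623). Zrsr1 ran from 0 to 67.8 (median 19.3) in control and from 0 to 41.9 (median 1.62) in light (-2.27 ± 0.95, adjusted p = 0.123). Impact ran from 0 to 27.8 (median 4.76) and from 0 to 155 (median 30.9), and Peg3 from 25.2 to 72.9 and from 7.77 to 50.1. All 4 genes overlapped between the groups. Summed maternal RNAs of the oocyte did not, with 2081 to 4659 CPM in control and 622 to 1870 in light, and their part in these values was not tested.

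The tools did not call the same members there. edgeR called Impact and Sgce, and DESeq2 called Snrpn and Impact, each higher in light. Snrpn ran from 2.08 to 28.7 (median 16.3) in control and from 0 to 117 (median 54.8) in light. The 0 was in light library 16, which had 318177 reads outside ribosomal RNA, the fewest of all libraries.

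At the 4-cell stage Usp29 was the only member called, 1 of 9 tested, beside 1.45% of all features (1.12% higher). It was at 0 in 3 of 6 control libraries, which reached 49.9 with a median of 4.51, and ran from 27.4 to 177 (median 64.8) in the 8 light libraries. The groups overlapped through 1 control library. The log2 fold change was 3.76 ± 0.80 (adjusted p = 0.0179). The call was lost without control library 5 (adjusted p = 0.0524) and in edgeR (0.0899) and DESeq2 (0.101). Without control 4-cell libraries 1 and 2, chosen after the data were seen, the log2 fold change was 2.64 (adjusted p = 0.0457).

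The remaining 4-cell values overlapped widely. Snrpn had a log2 fold change of 0.01 ± 0.48 and Impact of 0.65 ± 0.77. Sgce ran from 1.52 to 24.6 (median 15.2) in control and from 0 to 16.2 (median 2.44) in light, with a log2 fold change of -1.77 ± 0.85 (adjusted p = 0.279). Peg10 was at 0 in all 6 control libraries and in 7 of 8 light libraries.

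In morulae 2 of 8 members had an unadjusted p under 0.05 in limma, beside 2335 of 15217 features. It called 0 of 8 members and 1.18% of all features. Those calls were 54 higher and 125 lower at the deposited scaling and 138 and 139 with the median ratio, which moved the median of all features from 0.10 to 0.21. edgeR and DESeq2 also called 0. The 2 were Mest, at 0 in 8 of 13 control libraries and 0.934 to 14.5 in light (log2 fold change 1.57 ± 0.58, adjusted p = 0.172), and Impact, with medians of 21.2 and 88.0 (1.64 ± 0.70, adjusted p = 0.239). Snrpn differed by 0.76 ± 0.43 (adjusted p = 0.409), and Usp29 by 1.36 ± 0.68 (adjusted p = 0.333).

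**Figure D4:**
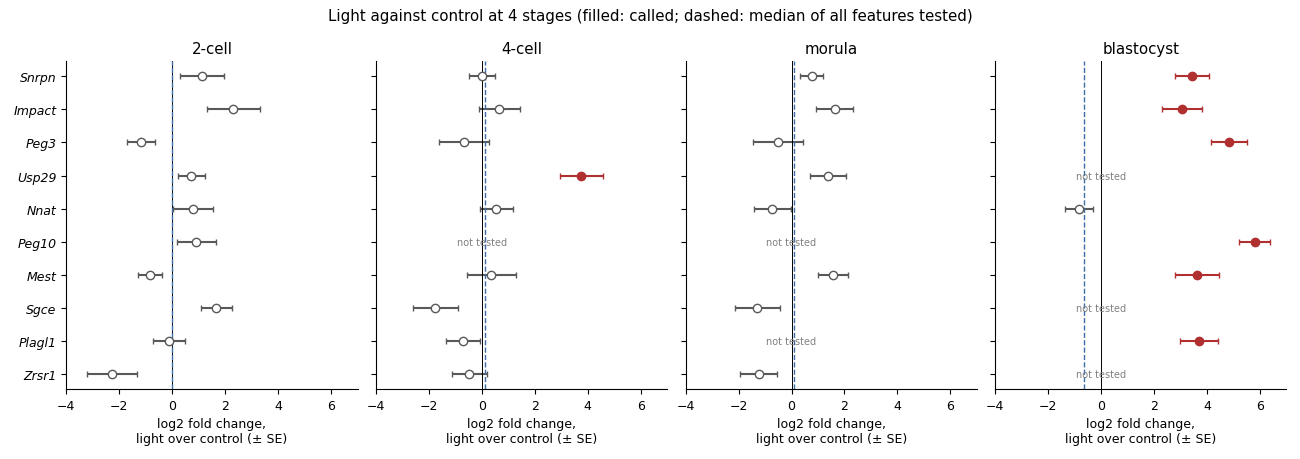
Each panel is 1 stage that was tested, with the log2 fold change of light over control on the x axis and the members on the y axis. Points are limma estimates with bars of ± 1 SE, filled red where called, and the dashed line is the median of all features tested. In blastocysts 6 members lie right of 3, and at the 4-cell stage only Usp29, at 3.76, is called.

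In the step from 2-cell to 4-cell embryos, stored egg RNA gives way to transcription from the embryo's own genome. In control embryos 8 of 8 members tested were called, 3 higher and 5 lower, beside 46.1% of all features (13.8% higher and 32.3% lower). Snrpn rose by 2.53 ± 0.66 on the log2 scale (adjusted p = 0.00354), Impact by 3.13 ± 1.12 (0.0268) and Sgce by 3.29 ± 0.65 (0.000294). Sgce went from 0 in 6 of 7 libraries to 1.52 to 24.6 in all 6. Mest, Plagl1, Usp29, Zrsr1 and Peg3 fell. The call of Impact was lost without any 1 of 6 of the 13 libraries (control 2-cell 10 or 24, or control 4-cell 2, 4, 5 or 6), with an adjusted p of up to 0.0682, and that of Peg3 without control 4-cell library 1 or 3 (up to 0.0617).

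Mest went from 63.6 to 211 (median 95.8) at the 2-cell stage to 0 to 53.7 (median 10.9) at the 4-cell stage in control, and the groups did not overlap. Plagl1 went from 9.37 to 98.2 (median 39.5) to 0 to 17.9 (median 0.190). The log2 fold changes were -3.57 ± 0.75 for Mest (adjusted p = 0.000549) and -3.92 ± 0.81 for Plagl1 (0.000457). Usp29 (-3.57 ± 0.90), Zrsr1 (-2.82 ± 0.90) and Peg3 (-2.33 ± 0.80) were called by limma with adjusted p of 0.00264, 0.014 and 0.0217. Neither edgeR nor DESeq2 called these 3, with adjusted p from 0.0507 to 0.211.

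In the light group 3 of 10 members were called between the same stages at the deposited scaling, all lower, beside 36.5% of all features (29% lower). With the median ratio or CPM scaling 4 were called, Snrpn and Impact higher and Mest and Plagl1 lower, DESeq2 called Snrpn higher and 2 lower, and edgeR called 3 lower, among them Peg10. The median ratio moved the median of all features from -0.56 to -0.29, and its calls over all features were 2004 higher and 4078 lower, against 1283 and 5010. CPM scaling called 1875 higher and 4182 lower, edgeR 1901 and 3794, and DESeq2 1901 and 3563. Plagl1 went from 7.02 to 75.4 to 0 in 7 of 8 libraries (log2 fold change -4.52 ± 0.70, adjusted p = 8.4e-06), and Mest from 25.5 to 200.2 to 0 to 31.8 (-2.36 ± 0.68, adjusted p = 0.00674). Peg3 was called at the deposited scaling (-1.83 ± 0.71, adjusted p = 0.0415), but not with the median ratio (0.1), CPM (0.0863) or in edgeR (0.217) and DESeq2 (0.119), and it was lost without any 1 of 7 of the 14 libraries (up to 0.109). Snrpn (1.41 ± 0.66) and Impact (1.48 ± 0.69) missed the threshold at the deposited scaling with adjusted p of 0.0918 and 0.0894.

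Whether the change from 2-cell to 4-cell differed between light and control was tested by an interaction term. Sgce was called, 1 of 10 members beside 3.07% of all features (1.45% lower), with a smaller change in light (-3.42 ± 1.00, adjusted p = 0.049). Calls over all features were 332 higher and 295 lower at the deposited scaling and 631 and 302 with the median ratio, which moved the median from 0.09 to 0.27. The Sgce call was lost without 20 of the 27 libraries taken in turn. Usp29 had an interaction of 3.05 ± 1.03 (adjusted p = 0.0895), which missed the threshold.

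From the 4-cell to the 8-cell stage Usp29 was the member called in the light group, 1 of 8 beside 10.6% of all features (9.94% lower). Its median went from 64.8 to 4.40, with ranges of 27.4 to 177 and 0 to 58.6 that overlapped through 1 library at the 8-cell stage (log2 fold change -3.35 ± 0.60, adjusted p = 0.000411). edgeR did not call it (adjusted p = 0.0665). Over all features the deposited scaling called 94 higher and 1508 lower with a median of -0.45, while the median ratio called 161 and 223 with a median of -0.03 and edgeR called 247 in all. In control, the Usp29 medians were 4.51, 54.8 and 0 at the 4-cell, 8-cell and morula stages, a description only. From the 8-cell stage to the morula limma called 0 of 7 members in light, with 0 at an unadjusted p under 0.05, and 11.8% of all features (665 higher and 1040 lower, or 837 and 869 with the median ratio), and edgeR and DESeq2 called 0.

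From morula to blastocyst the light group had 7 of 8 members called, 4 higher and 3 lower, beside 20.7% of all features (5.02% higher and 15.7% lower). These shares depend on the scaling: over all features 681 were higher and 2131 lower at the deposited scaling, 1349 and 826 with the median ratio, 1192 and 801 with CPM and 1086 and 886 in edgeR. Peg10 was at 0 in 5 of 6 light morulae, with 1 read in all, and rose in each blastocyst (log2 fold change 5.84 ± 0.61, adjusted p = 1.2e-08). Plagl1 was likewise at 0 in 5 of 6 morulae, with 1 read, and rose by 4.02 ± 0.64 (adjusted p = 2.3e-05). The ratio of summed reads scaled by the size factors was 563 (95% exact interval 101 to 22248) for Peg10 and 140 (24.9 to 5556) for Plagl1, and scaled by the reads outside ribosomal RNA it was 907 (162 to 35875) and 226 (40.2 to 8959). Neither gene had a value above 1 in any light morula, so both passed the filter through the light blastocysts alone. With no filter the adjusted p was 2.7e-06 for Peg10 and 0.000347 for Plagl1. Both calls are descriptions, and the fit with no filter does not make them tests. Peg3 rose by 2.67 ± 0.74 (adjusted p = 0.00923) and Mest by 2.28 ± 0.68 (0.0153), and Peg3 was not called by edgeR (0.0672) or DESeq2 (0.219).

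Usp29, Impact and Snrpn were called lower in that step. Usp29 ranged from 1.87 to 7.75 in light morulae and was at most 0.357 in light blastocysts (-2.28 ± 0.56, adjusted p = 0.00328). Impact (-1.49 ± 0.46, adjusted p = 0.0179) and Snrpn (-1.12 ± 0.41, adjusted p = 0.0488) were called at the deposited scaling, under which the median of all features was -0.45. Leaving out single libraries, the call of Snrpn was lost without 8 of 12 (up to 0.114), that of Impact without light blastocyst 15 (0.0531) and that of Mest without light blastocyst 24 or 29 (up to 0.0571). With the median ratio the median of all features was 0.07, and Impact (-0.77, adjusted p = 0.244) and Snrpn (-0.40, adjusted p = 0.451) were not called.

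In the control group 1 of 8 members was called from morula to blastocyst, beside 11.9% of all features (5.11% lower). Over all features 1010 were higher and 765 lower at the deposited scaling (median 0.28), and 1544 and 721 with the median ratio (median 0.51). Snrpn went from 11.6 to 93.4 (median 45.7) in 13 morulae to 0.526, 1.93 and 6.61 in 3 blastocysts, with no overlap (log2 fold change -3.78 ± 0.66, adjusted p = 0.000298). Impact (-2.90 ± 1.07, adjusted p = 0.0799), Peg3 (-2.68 ± 1.14, 0.134) and Sgce (-2.53 ± 1.12, 0.153) missed the threshold in limma. DESeq2 called 4 of 8 members lower, beside 1006 of 14972 features. Peg10 was at 0 in 12 of 13 control morulae and Plagl1 in 11 of 13, so both were near 0 before and after.

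The morula to blastocyst change differed between light and control for 3 of 10 members, all with a higher change in light, beside 1.57% of all features (0.119% higher). Over all features 20 were higher and 245 lower at the deposited scaling (median -0.63), against 103 and 210 with the median ratio (median -0.29), 87 and 179 with CPM and 210 and 68 in DESeq2. The interaction was 5.81 ± 0.79 for Peg10 (adjusted p = 4e-05), 3.72 ± 0.64 for Plagl1 (0.00068) and 5.35 ± 1.44 for Peg3 (0.0455). The Peg3 call was lost without 19 of the 28 libraries taken in turn, while Peg10 and Plagl1 kept theirs. edgeR and DESeq2 did not call Plagl1 (adjusted p = 0.223 and 0.0688), and Peg3 was not called by edgeR (0.0655) or with no filter (0.0581). Peg10 and Plagl1 were above 1 in no light morula and entered this test mainly through the light blastocysts, so their calls are descriptions. Snrpn had 2.67 ± 0.76 (adjusted p = 0.0634) and was called with the median ratio, CPM scaling or no filter, in edgeR and in DESeq2. This comparison, the light against control comparison in blastocysts and the control step share the same 3 control blastocysts.

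Of the other paternally expressed genes, light and control differed by a call in 0 of 15 in 2-cell embryos, 0 of 11 in 4-cell embryos and 0 of 16 in morulae. The shares over all features were 10.5%, 1.45% and 1.18%, and at the 2-cell stage 1024 of 18532 features were higher and 920 lower. Of the maternally expressed genes, 1 was higher and 4 were lower in light at the 2-cell stage of 21 tested, and 0 of 13 and 0 of 15 were called at the 4-cell stage and in morulae. Ascl2, a transcription factor gene of the placenta, was among the lower ones at the 2-cell stage (log2 fold change -3.91 ± 0.91, adjusted p = 0.00503).

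From 2-cell to 4-cell, 2 of 16 other paternally expressed genes rose and 4 fell in control, and 1 rose and 2 fell in light. Over all features, 2453 of 17725 were called higher and 5719 lower in control, and 1283 of 17258 higher and 5010 lower in light. Gab1 rose in both, by 4.28 ± 0.83 (adjusted p = 0.000246) in control and 2.13 ± 0.78 (adjusted p = 0.03) in light. Of the maternally expressed genes, 1 of 20 rose and 18 fell in control, and 1 of 18 rose and 9 fell in light. Igf2r, the receptor that clears insulin-like growth factor 2, rose in both, by 3.95 ± 0.40 and 2.16 ± 0.33 (adjusted p = 9.9e-08 and 8.2e-06).

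From morula to blastocyst, 1 of 16 other paternally expressed genes rose and 1 fell in control, and 2 of 13 rose and 1 fell in light. Over all features, 1010 of 14972 were called higher and 765 lower in control, and 681 of 13553 higher and 2131 lower in light. The fetal growth factor gene Igf2 rose in both, by 2.95 ± 0.91 (adjusted p = 0.033) and 3.38 ± 0.67 (adjusted p = 0.000383). Gab1 fell by 4.27 on the log2 scale in control (adjusted p = 0.000425), and its interaction was 4.80 ± 0.88 (adjusted p = 0.00154). This was the 1 interaction call among 18 genes of its list, beside 1.57% of all features (0.119% higher). Of the maternally expressed genes, 3 of 14 rose and 0 fell in control, among them Meg3 (3.92 ± 0.95, adjusted p = 0.00709), and 1 of 17 rose and 1 fell in light.

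The genes with the course most like that of the members were sought over the 10 group means of log2 values. Against the mean course of the 10 members, which was highest in light 2-cell and lowest in control blastocyst libraries, Zfp473 had a Pearson correlation of 0.89, Napepld 0.89 and Dusp14 0.88. Of the members themselves, Mest had 0.902, Peg3 0.893 and Plagl1 0.79, while Sgce had 0.131 and Nnat -0.363. The members' own courses were thus unlike each other, and the mean course contains each of them. The 10 points share libraries and depth, and no p is given.

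Reads of some members could come from overlapping genes, since the counting is not stated to use strand. Snrpn shares 27.3% of its exonic bases with Gm38393 on the same strand, which was at 0 in all 4 control 8-cell libraries and had 3.37 to 21.9 in light. Mest shares 23.1% with Copg2 on the opposite strand, and Copg2 overlapped between the blastocyst groups (8.70 to 40.5 in control and 3.49 to 38.1 in light). Usp29 shares 14.3% with the antisense RNA Zim3, and Zrsr1 shares 9.17% with Commd1. Nnat lies within an intron of Blcap. Snrpb, which encodes a closely related spliceosomal protein, had 138 to 242 in control and 189 to 367 in light 8-cell libraries, so its groups overlapped where those of Snrpn did not.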

How the data were processed

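RNA of 67 C57BL/6 mouse embryo libraries made by SMART-seq2 was analysed, 33 control and 34 light. The authors deposited 1 table of signal values for 26414 features, made by scaling the read counts of a library with its size factor: in every library 99.96% or more of the values came back as whole reads, within 0.01. The study's methods describe RPKM, but the deposited signal was not divided by length. The limma test had been planned for values expected to be normalized, and it was kept. Count models on the recovered reads, edgeR and DESeq2, were run as alternatives. The submitters' processing notes name HISAT2, HTSeq 0.9.1 and mm9. Coordinates are from GENCODE M21 (GRCm38) and sequences from RefSeq GRCm38.p6, and no coordinate comes from the table.

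The members and lists were chosen with earlier results of these data known. All 10 members are named. Of the other lists, up to 2 called genes with the smallest p and a group mean of at least 10 were eligible to be named, and Kcnq1ot1 and Gab1 at the 8-cell stage were named because their groups did not overlap, after their values were seen. Gm38393, Copg2, Zim3, Commd1, Blcap and Snrpb were chosen as overlapping or related genes. Each library counted as 1 replicate, and the log2 values, after adding a pseudocount of 1, were fitted with limma 3.58.1 under R 4.3.3 (functions lmFit and eBayes, trend on). It was tested on simulated data. Alternatives were a pseudocount of 0.1, no filter, a mean above 5, scaling by the median ratio or to CPM (reads per 1000000 outside ribosomal RNA), edgeR 4.0.16 and DESeq2 1.42.0 on the recovered reads, a replicate block, and leaving out single libraries. Total reads per library were 836011 to 8551674, and intervals cover counting error only. No pair of libraries was a duplicate: the lowest chi-square over degrees of freedom in any group was 7.39. Python 3.11.15, numpy 2.4.6, pandas 2.3.3, scipy 1.17.1 and matplotlib 3.10.9 were used.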

Additional observations from a re-analysis of the deposited data

Results flagged for a closer look

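In groups of 4 to 10 libraries, 23 of 77 gene and group pairs had a library far from the others. No chance rate was computed for values with this many at 0, so the count is a description. Many of these groups are at 0 in all libraries but 1, where any read sets the library apart.

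Low libraries were control 2-cell 10 for Snrpn (2.08) and Zrsr1 (0), light 2-cell 16 for Snrpn and Impact (0 each), and control 4-cell 1 for Impact (0). Control 8-cell libraries stood high for Snrpn in library 3 (13.9), Impact in 4 (25.0), and Mest (15.7) and Peg10 (1.85) in 1. Other high values at the 2-cell stage were 14.8 for Nnat and 6.95 for Peg10 in control 17, 33.5 for Peg10 in light 14 and 1.30 for Sgce in control 12. At the 4-cell stage they were 5.75 for Nnat in control 6, 0.43 for Peg10 in light 6 and 7.71 for Plagl1 in light 5. Light 8-cell 8 had 1.55 for Zrsr1. Light morula 6 had 4.67 for Nnat and 0.934 for Peg10, and light morula 5 had 0.456 for Plagl1. Light blastocyst 23 had 1.43 for Nnat and 13.5 for Sgce, and light blastocyst 13 had 3.10 for Zrsr1.

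The change between stages differed between light and control by an interaction term (log2) for Sgce from 2-cell to 4-cell (-3.42), and for Peg3 (5.35), Peg10 (5.81) and Plagl1 (3.72) from morula to blastocyst.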

How the results depend on the processing

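No member called at the deposited scaling changed its direction under the alternatives run. Over all features the larger direction did change in some comparisons, as given above. At the 2-cell stage, where 0 members were called between light and control, 1 was called with the median ratio and with CPM scaling and 2 with edgeR and DESeq2. Over all features the median ratio called 2150 of 18254, CPM 2166 of 18092, edgeR 2162 and DESeq2 2741 of 18532. At the 4-cell stage the count went from 1 to 0 with no filter, edgeR and DESeq2. These called 53 of 21449, 190 of 15010 and 742 of 15010 features. In blastocysts the count went from 6 to 4 with no filter, beside 264 of 20231 features. The fit without control libraries 1 and 2 leaves 1 control library and is not counted here. In control from 2-cell to 4-cell, edgeR and DESeq2 called 5 of 8, beside 8276 and 7915 of 17725 features. From morula to blastocyst DESeq2 called 4 of 8, beside 1511 of 14972. In light, edgeR called 0 from 4-cell to 8-cell, beside 247 of 15178 features. From morula to blastocyst edgeR and DESeq2 called 4 of 8, beside 1972 and 2261 of 13553. The 2-cell to 4-cell interaction gave 0 with no filter (540 of 24912 features) and CPM scaling (814 of 20127) and 2 with the median ratio (933 of 20129). The morula to blastocyst interaction gave 4 with the median ratio (313 of 16710) and CPM (266 of 18125). It gave 3 in DESeq2 (278 of 16855), 2 in edgeR (193 of 16855) and 1 with a mean above 5 (49 of 9458). The cause of these changes was not tested.

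With each library left out, the counts ran from 0 to 3 (2-cell), 0 to 1 (4-cell), 0 to 0 (morula) and 4 to 6 (blastocyst) between light and control, 7 to 8 and 1 to 2 for the 2 control steps, 2 to 6, 1 to 1, 0 to 0 and 5 to 7 for the 4 light steps, and 0 to 2 and 2 to 4 for the interactions. At the 8-cell stage 2 to 3 members did not overlap. Shares of all features in these refits are not given here, so whether the counts moved with the calls over all features cannot be told.

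Replicate numbers did not pair the libraries, since the correlations of same-numbered libraries were -0.09 to 0.07. With the replicate number as a block, 0 members were called at the 4-cell stage and in the other stages tested with a block, where limma called no feature at all either: 0 of 18532 (2-cell), 15010 (4-cell) and 15217 (morula), with 4450, 1584 and 1364 at an unadjusted p under 0.05, so the block says nothing about the members.

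Calls over all features in blastocysts were 680 in limma, 284 with the median ratio and 151 in edgeR, and at the 4-cell stage 218, 304 and 190. Depth limits what can be said of values at 0: 3 reads correspond to 1.04 to 1.93 in control blastocysts.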
